A study of Mus musculus with 6 samples.

Results

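Transcripts of 6 very large ubiquitin ligases, Huwe1, Herc1, Herc2, Hectd4, Trip12 and Birc6, were followed in immunoprecipitates from mouse testis. The antibody was directed at the capsid-like protein PNMA4. The genes were found by symbol in the deposited count table, where each of the 6 symbols had 1 row among 57010 gene IDs. The rule uses no measured value, but the genes were chosen with earlier results of these data known. All 6 passed the filter on low counts, which left 13413 genes for testing. PNMA4, encoded by a gene that mouse gene tables call Moap1, is a domesticated descendant of a retrotransposon gag (capsid) gene. An antibody to PNMA4 was applied to iodixanol fractions 8 and 9 of material that had first collected between 25% and 70% sucrose. Each library came from the pooled lysate of 8 testes of mice aged 3 months.

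Of the 6 libraries, 3 were wild type, with C57BL/6J named as the strain, and 3 lacked PNMA4. The libraries lacking PNMA4 served as the control of the immunoprecipitation. Of these, 2 were Pnma4 KO and 1 was a double knockout (DKO) of Pnma1 and Pnma4, which the labels place in the group as its replicate 3. The strain background of the knockouts is not given in the sources used here. RNA of whole testis was not analysed here. The levels below describe what came down with the antibody, and by themselves show neither enrichment over testis nor binding to PNMA4. In such pooled material, fewer cells of a type and less RNA per cell cannot be told apart.

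The deletions were visible: Moap1 was counted 7, 26 and 27 times in wild type and never in a library lacking PNMA4, and Pnma1 was at 0 in the DKO library alone. Total counts ran from 3138657 to 6367930. Ribosomal RNA-like genes took 29.4% to 44.2% of counts in wild type and 38.4% to 67.5% without PNMA4, with the highest share in the DKO library. Spermatocyte and spermatid messages were present in every library. The 8 spermatocyte markers summed to 1239 to 1377 CPM (counts scaled to a common library size) in wild type and 1069 to 1226 CPM without PNMA4, and the 10 spermatid markers to 1933 to 2735 and 2259 to 2485 CPM. All 8 Leydig cell markers were detected, and they summed to 165 to 189 CPM in wild type and 163 to 422 CPM without PNMA4, the highest in the DKO library. Of the 8 Sertoli cell markers, also all detected, the 7 that passed the filter summed to 141 to 208 CPM and 148 to 294 CPM, again with the highest sum in the DKO library. Of the 6 spermatogonia markers 5 were tested, with sums of 43.6 to 48.9 CPM in wild type against 41.0 to 67.1 CPM, and of 8 macrophage, vascular and stromal markers 6 were tested, with sums of 30.2 to 39.4 against 28.4 to 54.5 CPM. Of 6 epididymis and blood markers 2 were tested, and Defb41 and Lcn5 were at 0 in all libraries. Crisp1, a protein abundant in the epididymis, was the single marker of all these lists that passed the test. Its log2 fold change of wild type over lacking PNMA4 was −3.57 (edgeR adjusted p = 0.00245). This rests on low counts of 2, 5 and 1 in wild type, against 20, 21 and 24 in the Pnma4 KO and DKO libraries. The part of these differences in the values of single genes was not tested.

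Ubiquitin is passed from an activating enzyme (E1) to a conjugating enzyme (E2) and, with the help of a ligase (E3), to a substrate protein. A ligase of the HECT type takes the ubiquitin onto a cysteine of its own before handing it on. Huwe1, Herc1, Herc2, Hectd4 and Trip12 encode HECT ligases. Birc6 encodes an inhibitor of apoptosis protein (IAP) that carries a BIR domain, which can bind caspases, together with an E2 domain, so that it acts without a HECT domain. In mice, mutations of Herc2 are known for small size and male sterility with abnormal sperm heads, and HUWE1 is needed for the upkeep of male germ cells.

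The 6 genes lie on different chromosomes, each over a long span, and the coordinates are those of RefSeq on GRCm38.p6. Huwe1 (ENSMUSG00000025261) lies on chromosome X from 151800785 to 151935417. Herc1 (ENSMUSG00000038664) lies on chromosome 9 from 66350412 to 66508775. Herc2 (ENSMUSG00000030451) lies on chromosome 7 from 56050124 to 56231800. These 3 genes are on the forward strand, as are Hectd4 and Birc6. Hectd4 (ENSMUSG00000042744) spans chromosome 5 from 121219513 to 121368577. Birc6 (ENSMUSG00000024073) spans chromosome 17 from 74528254 to 74703356. Trip12 (ENSMUSG00000026219) spans chromosome 1 from 84721189 to 84850004 on the reverse strand, and its start overlaps Fbxo36 on the forward strand. Fbxo36, an F-box protein gene, had 39 to 124 counts per library, against 4560 to 13273 for Trip12. The strand setting of the counting is not given in the sources used here, so reads of the overlap could belong to either gene. Of the 12 annotated genes that overlap a member, Fbxo36 had the most counts among the 8 found in the table by symbol. The microRNA genes Mir98, Mirlet7f-2 and Mir3113, which lie inside the span of Huwe1, were listed at 0 in all 6 libraries. By exact match, each of the 6 symbols was found in 1 row of the table.

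All 6 transcripts drew many reads in the immunoprecipitates, which is not a measure of molecules, since transcript lengths were not used. No difference between wild type and the libraries lacking PNMA4 exceeded the spread between libraries. Together they held 0.385%, 0.567% and 0.468% of all counts in wild-type replicates 1 to 3, and 0.384%, 0.492% and 0.230% in Pnma4 KO replicates 1 and 2 and the DKO library. The low share in the DKO library went with its high share of ribosomal RNA-like counts. With those counts left out, the members held 0.691%, 0.803% and 0.800% in wild type and 0.739%, 0.799% and 0.709% without PNMA4, and the groups overlapped. In CPM after TMM scaling (the trimmed mean of M-values method), the members summed to 4169 ± 354 CPM in wild-type libraries. Those lacking PNMA4 had 3968 ± 419 CPM (SD, n = 3 each). The marker sums above are on this same scale, as are the values below unless stated otherwise.

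Trip12 drew the most reads of the 6 in every library, followed by Hectd4. Trip12 encodes a ligase known for the degradation of proteins with a fused ubiquitin and for limiting ubiquitin signals at DNA breaks. It stood at 1286, 1685 and 1496 CPM in wild type, against 1535, 1504 and 1516 CPM in the 2 Pnma4 KO and the DKO libraries. The 3 libraries lacking PNMA4 lay close together, between the lowest and the highest wild-type library. By read count, Trip12 ranked between 14 and 23 among the 13413 tested genes in each library. Its log2 fold change of wild type over lacking PNMA4 was −0.03 (standard error 0.23), which did not pass the test (edgeR adjusted p = 1.00).

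Hectd4, a HECT ligase whose substrates are less well described than those of the others, showed the largest difference between groups of the 6, and it did not pass the test. It stood at 982, 1304 and 1020 CPM in wild type, against 1013, 1129 and 749 CPM in the Pnma4 KO and DKO libraries. The DKO library was the lowest of all 6 libraries and wild-type replicate 2 the highest, and the other 4 lay between 982 and 1129 CPM. Its fitted log2 fold change of 0.19 (standard error 0.24) did not pass the test (edgeR adjusted p = 1.00), and 0.04 without the DKO library (edgeR adjusted p = 1.00).

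Herc2 and Herc1 encode ligases that carry RCC1-like repeats beside the HECT domain. HERC2 is known for assembling repair factors at DNA breaks, and in mice HERC1 is known for a mutation that causes loss of Purkinje cells. Herc2 stood at 577, 449 and 656 CPM in wild type, against 428, 691 and 501 CPM in the Pnma4 KO and DKO libraries. Herc1 stood at 515, 519 and 625 CPM in wild type, against 434, 626 and 489 CPM. For both genes the highest and the lowest of the 6 libraries were the 2 Pnma4 KO libraries, so the groups overlapped over the whole range of wild type. The log2 fold changes were 0.05 for Herc2 and 0.10 for Herc1, with standard errors of 0.23 and 0.22 (edgeR adjusted p = 1.00 for each).

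Huwe1, whose product marks the survival protein MCL1, p53 and histones among other substrates, had the smallest ratio of highest to lowest library of the 6, at 1.26. It stood at 261, 260 and 296 CPM in wild type, against 235, 287 and 237 CPM in the Pnma4 KO and DKO libraries. One Pnma4 KO library lay within the range of wild type, and the other and the DKO library lay below it. Its fitted log2 fold change of 0.11 (standard error 0.20) did not pass the test (edgeR adjusted p = 1.00).

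Birc6, whose product restrains caspases and receives ubiquitin from the activating enzyme UBA6, drew the fewest reads of the 6 in every library, and ranked between 363 and 783 among the tested genes. It stood at 141, 188 and 249 CPM in wild type, against 154, 208 and 169 CPM in the Pnma4 KO and DKO libraries. Wild type held both the lowest and the highest library, and the 3 libraries lacking PNMA4 lay between them. Its fitted log2 fold change of 0.12 (standard error 0.22) did not pass the test (edgeR adjusted p = 1.00).

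**Figure D1:**
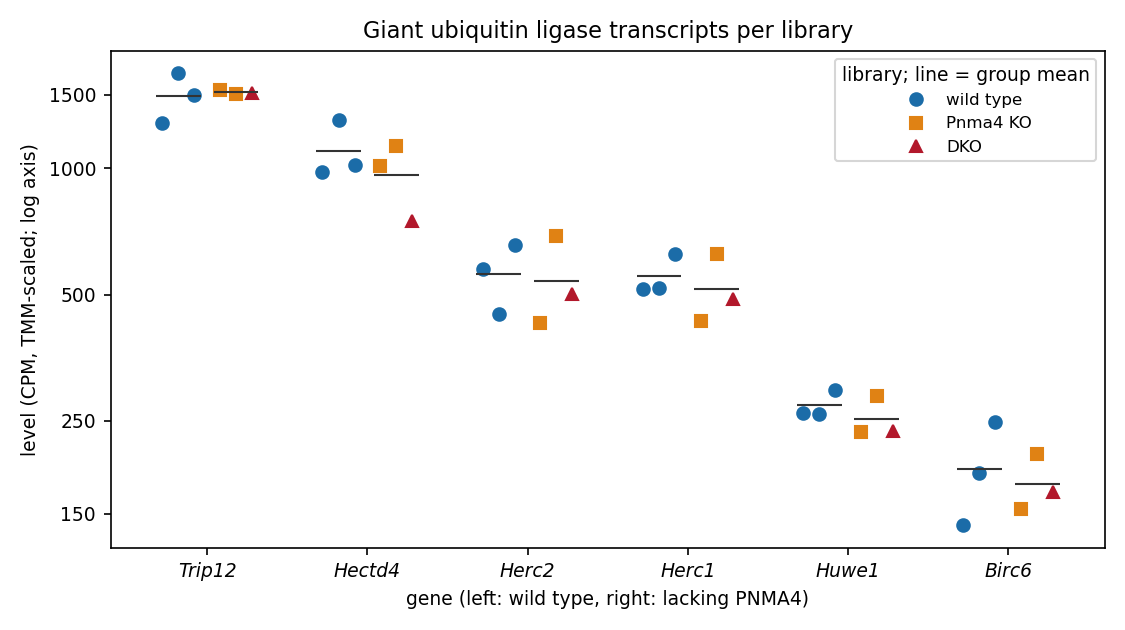
Level of each ubiquitin ligase transcript in CPM after TMM scaling, on a log axis, with 1 point per library and a line at each group mean; wild type stands left and the libraries lacking PNMA4 stand right within each gene. The groups overlap for all 6 genes, and Hectd4 in the DKO library, at 749 CPM, lies below the other 5 libraries.

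None of the 6 genes passed the test between wild type and the libraries lacking PNMA4, where 0.0596% of all tested genes did. For none of them were the 2 groups free of overlap, against 6.68% of all tested genes. The lowest unadjusted p of the 6 was 0.419, for Hectd4, so the count at an unadjusted p under 0.05 was also 0, against 2.92% of all tested genes. DESeq2 and limma-voom called 0 of the 6 as well, where they called only 7 and 6 genes of all. The median log2 fold change of the 6 was 0.10, and that of all tested genes was 0.01. The data bound the size of a difference more closely than the p-values show. The 95% intervals ran at most to 1.60-fold higher in wild type, for Hectd4, and at most to 1.42-fold lower, for Trip12. For Huwe1, the interval of the fold change ran from 0.805 to 1.44. A 2-fold difference relative to the bulk of genes is thus outside the interval of each of the 6. The same held for 9540 of the 13413 tested genes. Because TMM scaling aligns the libraries on the bulk of genes, the comparison is blind to the total amount of RNA recovered.

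The DKO library, which also lacks Pnma1, was compared with the 2 Pnma4 KO libraries in a fit with 3 genotypes, in which the lone library is assumed to vary like the others. None of the 6 genes passed that test either (edgeR adjusted p = 0.965 for Hectd4 and 0.999 for the other 5), where 0.0746% of all tested genes did. Hectd4 was at 749 CPM in the DKO library, against 1013 and 1129 CPM in the Pnma4 KO libraries, a log2 fold change of −0.52 with a 95% interval from −1.27 to 0.24. It was the only 1 of the 6 whose DKO level lay below both Pnma4 KO levels, as 35.0% of all tested genes did. The other 5 had log2 fold changes between −0.16, for Herc2, and −0.004, for Trip12. With 1 library on one side the intervals are wide, and that of Herc2 ran from −0.92 to 0.60.

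**Figure D2:**
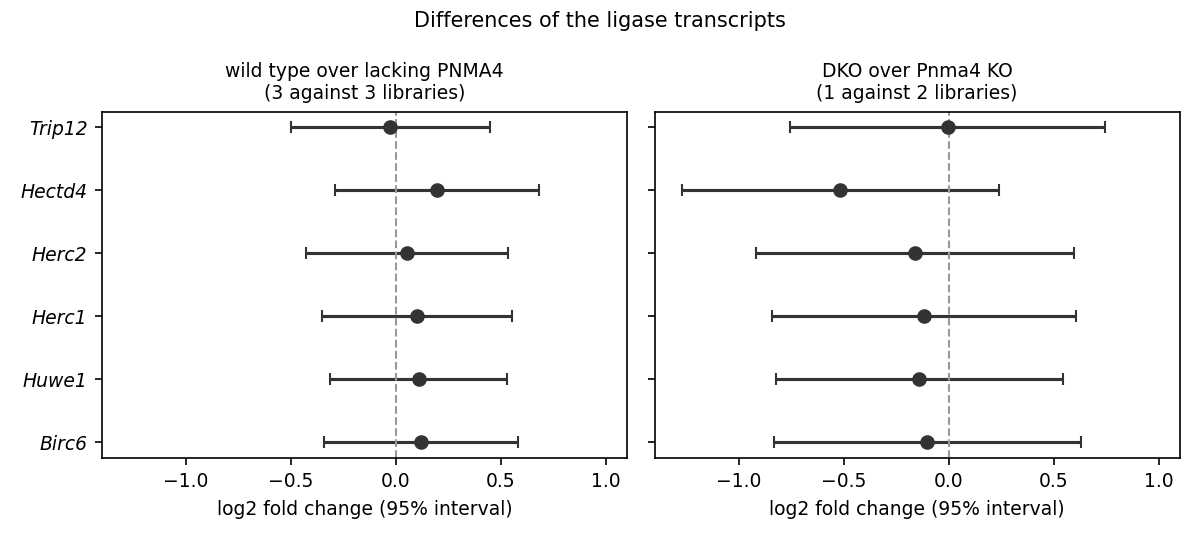
Log2 fold change of each ligase gene with its 95% interval from edgeR, for wild type over lacking PNMA4 on the left and for DKO over Pnma4 KO on the right; the dashed line marks no difference. All 12 intervals include 0, and the point farthest from it is Hectd4 in the DKO comparison, at −0.52.

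The order of the 6 genes by reads was Trip12, Hectd4, Herc2, Herc1, Huwe1 and Birc6. It is an order of counted reads and not of molecules, since transcript lengths were not used here and long transcripts draw more reads. Over the 6 libraries the mean levels were 1504 ± 128 CPM for Trip12, 1033 ± 183 for Hectd4, 550 ± 109 for Herc2, 534 ± 76.6 for Herc1, 262 ± 25.1 for Huwe1 and 185 ± 39.4 for Birc6 (SD, n = 6). Neighbours in this order kept their places in all 6 libraries, except Herc2 and Herc1. Herc2 was above Herc1 in 4 libraries and below it in 2, wild-type replicate 2 and Pnma4 KO replicate 1, so the 2 do not differ beyond their spread.

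Ratios of 2 members within a library do not depend on how libraries are scaled, and 15 such ratios were compared between the groups. No ratio had groups free of overlap, and none passed a two-sided exact permutation test, in which 3 libraries on each side cannot give a p below 0.1. The lowest was that of Trip12 over Hectd4 (exact permutation p = 0.2, and 1 after Benjamini-Hochberg adjustment over the 15). That ratio was 1.31, 1.29 and 1.47 in wild type, against 1.52, 1.33 and 2.02 in the Pnma4 KO and DKO libraries. The ratio of Herc1 to Huwe1 varied least, with the highest library 1.18 times the lowest. It was 1.97, 2.00 and 2.11 in wild type, against 1.85, 2.18 and 2.06 without PNMA4. The ratio of Hectd4 to Herc2 varied most, by 1.95 times, from 1.49 in the DKO library to 2.91 in wild-type replicate 2.

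The members differed in the ratio of the highest to the lowest of the 6 libraries, whatever the group. The highest library was 1.26 times the lowest for Huwe1, 1.31 times for Trip12 and 1.44 times for Herc1. It was 1.62 times for Herc2, 1.74 times for Hectd4 and 1.76 times for Birc6. Among the 1161 tested genes with a mean of at least 100 CPM, the median of this measure was 1.53, and 8.70% of them had a smaller value than Huwe1. That share was 15.7% for Trip12, 34.7% for Herc1, 62.5% for Herc2, 74.2% for Hectd4 and 75.8% for Birc6. Huwe1, Herc1, Herc2 and Birc6 were above their own means in wild-type replicate 3 and Pnma4 KO replicate 2, and below them in Pnma4 KO replicate 1 and the DKO library. Trip12 and Hectd4 were highest in wild-type replicate 2. For Hectd4, Pnma4 KO replicate 2 also lay above the gene's mean and the DKO library below it. Its levels in wild-type replicate 3 and Pnma4 KO replicate 1 were close to that mean.

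The mean pattern of the 6 genes, as log2 CPM centred on each gene's own mean, ran from −0.17 in Pnma4 KO replicate 1 to 0.19 in wild-type replicate 3. Of 2372 other tested genes with at least 50 CPM, the 5 closest to it by root mean square difference over the 6 libraries included Rasal2 (0.037), AW554918 (0.037), Crybg3 (0.047) and Foxo3 (0.048), against a median of 0.24. Foxo3, a transcription factor of the forkhead class, stood at 61.6, 62.5 and 75.5 CPM in wild type, against 58.3, 74.9 and 60.5 CPM in the Pnma4 KO and DKO libraries. In Foxo3, as in the members' mean, 1 Pnma4 KO library was high and the other low. None of these 4 genes passed the test between groups (edgeR adjusted p = 1.00 for each). The genes were picked for closeness to that mean over the same 6 libraries, so neither point is a separate result.

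**Figure D3:**
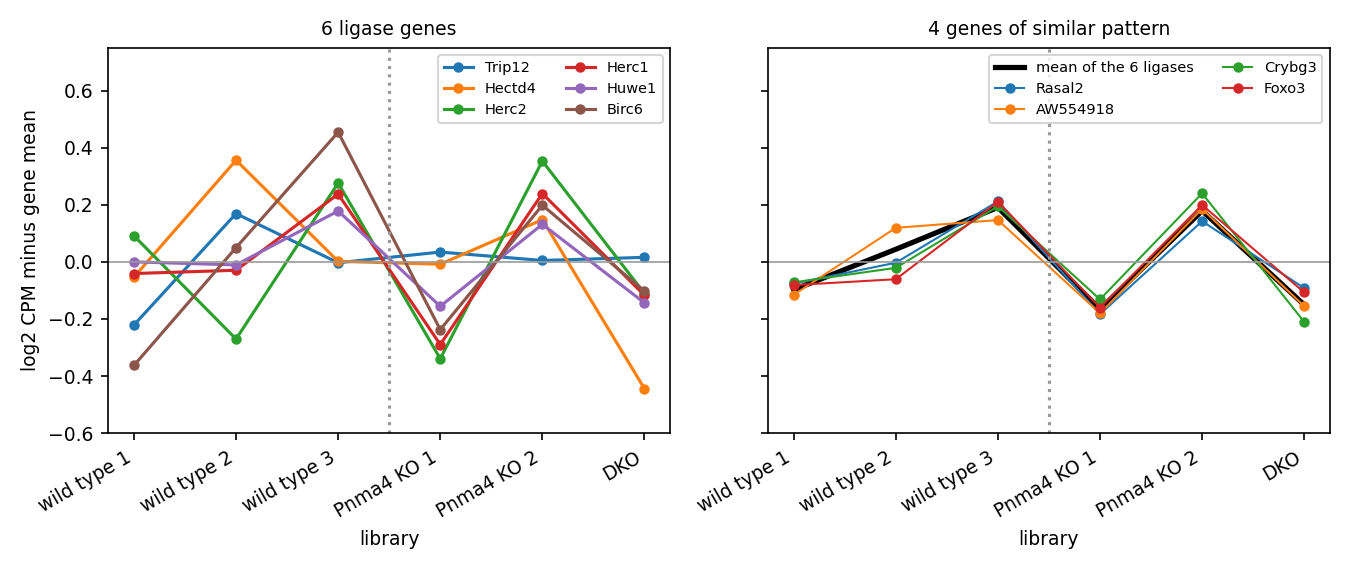
Log2 CPM minus the gene's mean over the 6 libraries, for the 6 ligase genes on the left and, on the right, for their mean (black) and 4 genes of similar pattern; lines only join the points of a gene, and the dotted line separates wild type from the libraries lacking PNMA4. Hectd4 falls to −0.44 in the DKO library, while Huwe1 stays between −0.16 and 0.18.

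The rest of the ubiquitin system was described with 8 lists of 106 genes, of which 92 passed the filter on low counts. None of the 92 passed the test between wild type and the libraries lacking PNMA4, where 0.0596% of all tested genes did. The median log2 fold change of the 92 was −0.04. Positive log2 fold changes were found for 42 of the 92, against 6956 of all 13413 tested genes. At an unadjusted p under 0.05 there were 5 of the 92, against 391 of all 13413 tested genes (2.92%). After adjustment, DESeq2 and limma-voom called 0 of the 92, and 7 and 6 genes of all. For 80 of the 92, the 95% interval lay within 1 of 0 on the log2 scale, as it did for 9540 of all 13413 tested genes.

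Among other giant ligases, all 7 were tested, with a median log2 fold change of 0.07. Ubr4, a giant ligase that reads the starts of proteins, stood at 2238 ± 440 CPM in wild-type libraries and 1964 ± 216 CPM in those lacking PNMA4 (SD, n = 3 each; log2 fold change 0.19, edgeR adjusted p = 1.00). Among the 22 other HECT ligases, all tested, 11 had positive log2 fold changes and the median was −0.02. Ube3b, a HECT ligase bound by calmodulin, stood at 331 ± 50.8 CPM in wild-type libraries and 306 ± 41.5 CPM in those lacking PNMA4 (SD, n = 3 each). Of the 9 other genes with BIR domains, 4 passed the filter, and Birc7 was at 0 in all libraries. Birc2, an inhibitor of apoptosis that also limits NF-kappaB signalling, stood at 65.5 ± 23.8 CPM in wild-type libraries and 81.0 ± 12.3 CPM in those lacking PNMA4, and Xiap, a direct inhibitor of caspases, at 18.3 ± 7.91 and 19.6 ± 5.49 CPM (SD, n = 3 each). The groups overlapped for both.

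Upstream of the ligases, 3 of 4 activating enzyme genes and 27 of 33 conjugating enzyme genes were tested, with median log2 fold changes of 0.04 and −0.11. Uba1, the main activating enzyme, stood at 158 ± 18.9 CPM in wild-type libraries and 163 ± 13.0 CPM in those lacking PNMA4, and Uba6, the partner of BIRC6, at 34.8 ± 14.9 and 34.0 ± 0.406 CPM (SD, n = 3 each). Of the conjugating enzymes, Ube2n, which builds chains linked through lysine 63, stood at 81.6 ± 4.49 CPM in wild-type libraries and 87.1 ± 17.4 CPM in those lacking PNMA4. Ube2k, which builds chains linked through lysine 48, stood at 86.3 ± 20.6 and 78.7 ± 18.3 CPM (SD, n = 3 each for both genes). The groups overlapped for all 4 genes.

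All 4 genes that encode ubiquitin itself were tested, with a median log2 fold change of 0.06. Ubb stood at 256 ± 57.9 CPM in wild-type libraries and 219 ± 46.8 CPM in those lacking PNMA4 (SD, n = 3 each). The groups overlapped, and the log2 fold change of 0.23 did not pass (standard error 0.23, edgeR adjusted p = 1.00).

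Large deubiquitinases, which remove ubiquitin, were tested in 6 of 6 cases, and their median log2 fold change was −0.001. Usp34 stood at 726 ± 232 CPM in wild-type libraries and 748 ± 112 CPM in those lacking PNMA4, and Usp47 at 606 ± 84.9 and 583 ± 135 CPM (SD, n = 3 each). Of 26 known partners and substrates of the 6 ligases, 24 were tested, of which 13 stood higher in wild type, and the median log2 fold change was 0.04. Usp7, a deubiquitinase whose level TRIP12 is known to limit, stood at 397 ± 27.9 CPM in wild-type libraries and 385 ± 59.4 CPM in those lacking PNMA4. Mib1, a ligase of the Notch pathway, stood at 203 ± 51.0 and 209 ± 33.3 CPM (SD, n = 3 each for both genes). Chosen after its value was seen, Mcl1, a substrate of HUWE1, stood at 48.3, 37.0 and 54.4 CPM in wild type, against 49.8, 77.7 and 69.1 CPM in the Pnma4 KO and DKO libraries. Wild-type replicate 3 lay above Pnma4 KO replicate 1, so the groups overlapped, and the log2 fold change of −0.50 did not pass (standard error 0.22, edgeR adjusted p = 1.00).

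**Figure D4:**
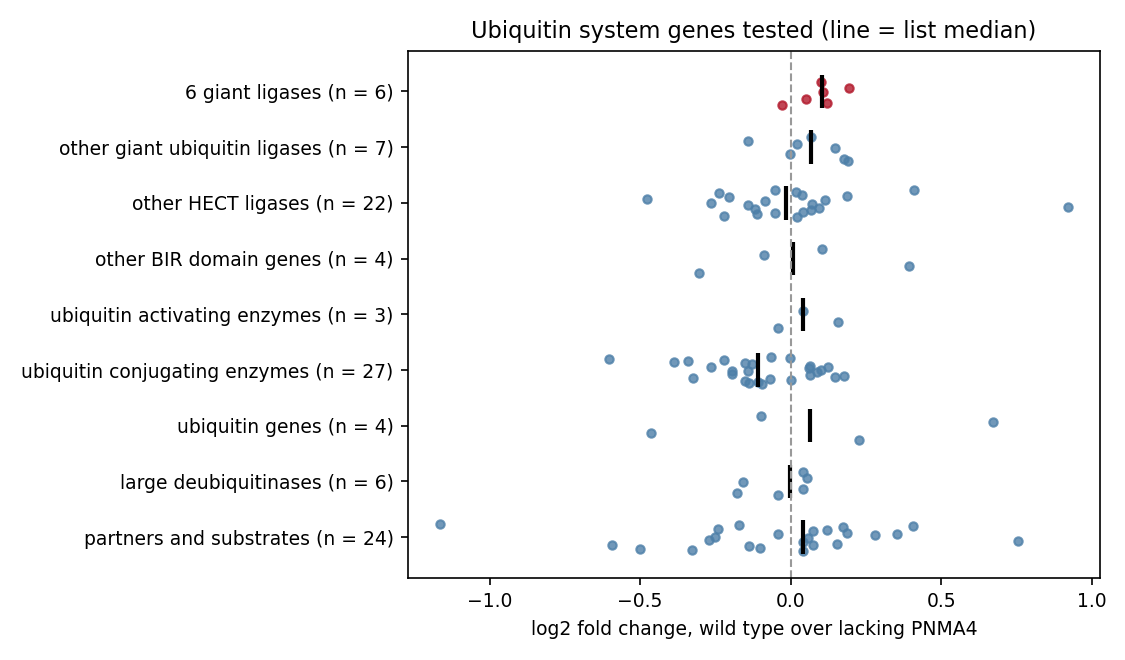
Log2 fold change of wild type over lacking PNMA4 for each tested gene of the 6 giant ligases (red) and of 8 other lists of ubiquitin genes (blue), with a black line at each list's median; some genes are in more than 1 list. The 6 ligases lie between −0.03 and 0.19, and the list medians lie between −0.11 and 0.10.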

How the data were processed

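The authors deposited 1 table of raw counts, whole numbers per Ensembl gene ID with a symbol for most IDs. The counts entered all fits unchanged. The submitters' processing notes name STAR 2.5.2b, bcl2fastq 2.20, GRCm38, DESeq2 and featureCounts, without roles or settings. The sources used here do not give the strand setting, the treatment of reads with several hits or the annotation release. Columns were matched to libraries by name. No pair of libraries agreed within sampling noise (chi-square per gene at least 8.60).

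edgeR 4.0.16 (R 4.3.3) fitted all 13413 genes left by filterByExpr (minimum count 10, minimum total 15), with TMM factors of 0.629 to 1.29, glmQLFTest and Benjamini-Hochberg adjustment at 0.05. Fold changes put wild type over the libraries lacking PNMA4, or DKO over Pnma4 KO. Standard errors were derived from the F statistic, and 95% intervals from its degrees of freedom. The step was run on simulated data with known changes, and the share of these that it recovered is not reported here. Patterns used log2 CPM with a prior count of 2. DESeq2 1.42.0, limma-voom (limma 3.58.1), other scalings and filters, a replicate block and leaving out libraries were tried. Loci came from RefSeq. The design text calls the lysates biological replicates. Errors of counting cover reads, not molecules, as no molecular identifiers are described. The members and lists were chosen with earlier results of these data known. Named were all members, the 2 most abundant genes of each list, or up to 4 that passed, and the 5 genes of most similar pattern. Values of 2 genes picked by that rule are not reported here, though list counts and medians cover them. Marker lists are given as sums over tested members.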

Additional observations from a re-analysis of the deposited data

How the results depend on the processing

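In all alternatives tried, 0 of the 6 ligase genes and 0 of the 92 other ubiquitin genes passed the test between wild type and the libraries lacking PNMA4. Among them was a fit with the replicate block, in which the log2 fold change of Hectd4 was 0.20 and 7 genes of all were called. Same-numbered libraries did not deviate together (correlations of deviations across genes of 0.04, −0.06 and 0.08), so the numbers were not taken as pairs. Without scaling factors the median of all genes was 0.31, and the members moved with it, Trip12 to 0.29. In limma-voom Birc6 was at −0.032. Signs near 0 turned when single libraries were left out. The range was −0.12 to 0.062 for Trip12 (positive without wild-type replicate 1), −0.091 to 0.27 for Herc2 and −0.10 to 0.29 for Birc6 (both negative without wild-type replicate 3), and −0.011 to 0.26 for Herc1. Herc1 and Herc2 were negative without Pnma4 KO replicate 1, and Herc2 was at −0.0009 without the DKO library. Hectd4 ran from 0.04, without the DKO library, to 0.32, without Pnma4 KO replicate 2. Huwe1 ran from 0.049, without wild-type replicate 3, to 0.21, without Pnma4 KO replicate 2. DKO over Pnma4 KO was refitted with DESeq2, with TMM without ribosomal RNA-like genes and without each of 5 libraries, and 0 of the 6 passed in these. The ranges with 1 library left out were −0.047 to 0.0093 for Trip12, −0.36 to 0.14 for Herc1, −0.47 to 0.20 for Herc2 and −0.30 to 0.11 for Birc6, with the positive values without 1 of the Pnma4 KO libraries. For Hectd4 it was −0.59 to −0.46, and for Huwe1 −0.28, without Pnma4 KO replicate 1, to −0.017, without replicate 2. Over all genes, 8 were called between groups, 31 without a filter, 2 with the stricter filter and 8 to 18 with 1 library left out (18 without the DKO library). Between DKO and Pnma4 KO 10 were called, 16 in DESeq2 and 10 to 35 with 1 library left out (35 without wild-type replicate 3, 22 without replicate 2, 18 without Pnma4 KO replicate 1). As a share of total counts, the members summed to 4733 ± 910 CPM in wild type, against 3688 ± 1316 CPM in the libraries lacking PNMA4 (SD, n = 3 each). With ribosomal RNA-like genes left out of the total, they summed to 7646 CPM in wild type, against 7490 CPM in the libraries lacking PNMA4. Of 240 list medians under other settings, 24 moved by more than 1 SD. The cause of these changes was not tested. With 3 libraries a group, differences inside the 95% intervals of the members remain compatible with the data, as does no difference. The smallest detectable difference was not determined.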
